A study of Mus musculus with 12 samples.

Results

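Leukocyte adhesion in the mouse joint was examined through 7 genes, the selectins Selp and Sele, the immunoglobulin-type adhesion molecules Vcam1, Icam1, Icam2 and Pecam1, and Madcam1. They were chosen by their symbols, as the matching rows of the count tables, and make up 7 of the 27998 genes measured. The 12 libraries hold single-cell RNA-seq (scRNA-seq) counts of unique molecular identifiers (UMIs), tags that mark single captured RNA molecules, made with a 3′ kit, so levels were compared between cells for each gene and never between genes. All animals were WT C57BL/6 mice, males aged 8 to 10 weeks by the study's methods. Every library was made from live hind-limb joint cells sorted for lack of CD45, an immune cell marker, and pooled from 3 animals, so n counts pools, and most leukocytes that would bind these molecules were removed by the sort. Of the 4 stages, with 3 libraries each, rest was untreated (day 0). The others were taken 7 to 9 days (peak), 15 days (resolving) or 22 days (resolved) after an intravenous injection of K/BxN serum, which transfers arthritis to the recipient (serum transfer-induced arthritis, STIA).

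Leukocytes leave the blood mainly through small venules. P-selectin, the product of Selp, is stored in endothelial granules and in platelets, whereas E-selectin, the product of Sele, is made after inflammatory stimulation, and both bind sugar chains on passing leukocytes and slow them. ICAM1 and VCAM1 bind leukocyte integrins and bring the cells to a stop, PECAM1 and ICAM2 lie largely at or near endothelial junctions and take part in the crossing, and MAdCAM1 directs lymphocytes to the vessels of the gut. Inflammatory cytokines raise Sele, Vcam1 and Icam1 in endothelium, and synovial fibroblasts are also known to carry VCAM1 and ICAM1.

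Of 21042 deposited cells, 20060 were within the study's limits on genes and UMIs, fewer than the study states, with 1227 to 2747 cells and 7468914 to 16566202 UMIs per library. No cell barcode sequence was shared between libraries, and the median UMI count per deposited cell was 5358 in every library. The sources used here do not say whether the libraries were brought to equal depth before deposit, so UMI totals may not be the depth as sequenced. Cells were clustered without the 7 genes, and clusters were named from marker genes, so that every name below means "-like". The classes were fibroblast (11301 cells, 56.3%), vascular endothelial (1766, 8.80%), osteoblast (1268), tenocyte (731), perivascular (656), proliferating (656), chondrocyte (313), muscle (266), lymphatic endothelial (186), immune (114) and Schwann cells (83), and 2720 cells stayed unnamed. A UMI of Ptprc, which encodes CD45, was found in 0.294% of cells. The libraries did not group by their stage labels. Their barcodes end in suffixes from 1 to 12, and in the summed fibroblast profile (11345 genes) the nearest library lay in the same run of 3 suffixes for 12 of 12 libraries and had the same stage label for 0 of 12. The sources used here do not say what the suffix stands for, and each run holds libraries of 3 stages. Whether the stage labels and the matrices are correctly matched could not be settled from these sources. Results on stages are therefore given for the libraries as labelled and hold only as far as the labels do, with the values by run of suffixes beside them.

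The selectin genes are neighbours on mouse chromosome 1 (GRCm38), with Sele at chr1:164048234-164057677 and Selp at chr1:164115264-164150026, both on the plus strand and 57586 bases apart. Icam1 is at chr9:21015985-21028817 (plus strand) and Vcam1 at chr3:116109949-116129688 (minus strand). Icam2, at chr11:106377656-106388075, and Pecam1, at chr11:106654217-106750628, are both on the minus strand of chromosome 11, and Madcam1 is at chr10:79664559-79668537 on the plus strand. Gene models on the opposite strand overlap Vcam1, Icam1 and Selp. The 250 bases before the RefSeq start (GRCm38.p6) are shown for the pair of selectins, which were found in the same endothelial cells below, and for Icam1, which was higher in those cells; capitals mark a match to GGANNTTCC on either strand:
Sele (chr1:164047984-164048233, +): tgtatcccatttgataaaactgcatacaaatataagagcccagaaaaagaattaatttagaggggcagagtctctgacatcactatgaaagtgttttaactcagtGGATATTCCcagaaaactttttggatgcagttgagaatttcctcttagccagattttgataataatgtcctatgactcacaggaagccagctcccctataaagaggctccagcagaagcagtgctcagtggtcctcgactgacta
Selp (chr1:164115014-164115263, +): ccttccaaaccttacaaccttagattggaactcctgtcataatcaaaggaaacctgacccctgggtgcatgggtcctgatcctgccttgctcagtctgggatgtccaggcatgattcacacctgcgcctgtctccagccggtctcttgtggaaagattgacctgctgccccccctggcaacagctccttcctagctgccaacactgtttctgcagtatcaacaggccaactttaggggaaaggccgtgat
Icam1 (chr9:21015690-21015939, +): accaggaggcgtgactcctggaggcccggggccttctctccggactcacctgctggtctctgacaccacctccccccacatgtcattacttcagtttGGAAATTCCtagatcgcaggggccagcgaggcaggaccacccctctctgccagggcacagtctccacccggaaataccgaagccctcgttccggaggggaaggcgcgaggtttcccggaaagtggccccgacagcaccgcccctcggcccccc
Of the 7 genes, 4 were matched in the RefSeq promoter table (Icam1, Selp, Sele and Madcam1). A common form of the site bound by NF-κB, a transcription factor of inflammatory signalling, was also searched on both strands, as GGG and TTTCC separated by any 2 bases. It occurs in none of the 3 sequences shown. It occurs in the Madcam1 promoter and in 464 of 32851 promoters of this length (1.41%). The shorter GGANNTTCC, chosen after these sequences had been read, is found in 3.59% of promoters. Its match GGAAATTCC, found on both strands at the same place, lies 153 to 145 bases before the start of Icam1 and GGATATTCC 145 to 137 bases before that of Sele, and the Selp window has none. Madcam1, close to absent in these cells, also has a match, GGAAAGTCC, 70 to 62 bases before its start on the opposite strand. A match of letters is a description and not a binding site.

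The first question was which joint cells carried each adhesion molecule. Selp and Sele were almost wholly endothelial, with 92.7% of the 1237 Selp UMIs and 92.1% of the 328 Sele UMIs in vascular endothelial cells, and so were Pecam1 (89.6% of 9364) and Icam2 (90.1% of 2652). Icam1 and Vcam1 were spread more widely, with 52.9% of 18798 Icam1 UMIs and 57.6% of 12912 Vcam1 UMIs in fibroblasts, against 17.8% and 3.16% in vascular endothelium. Fibroblasts were 56.3% of kept cells and vascular endothelial cells 8.80%, so the fibroblast shares of both genes were near the share of cells. Values below are CPM, the share of a gene in the summed UMIs of a library's cells scaled to 1e6, tested with edgeR's quasi-likelihood test, and a gene was called at an adjusted p under 0.05 with a log2 fold change over 0.5. The clusters themselves were taken as given by these tests.

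**Figure D1:**
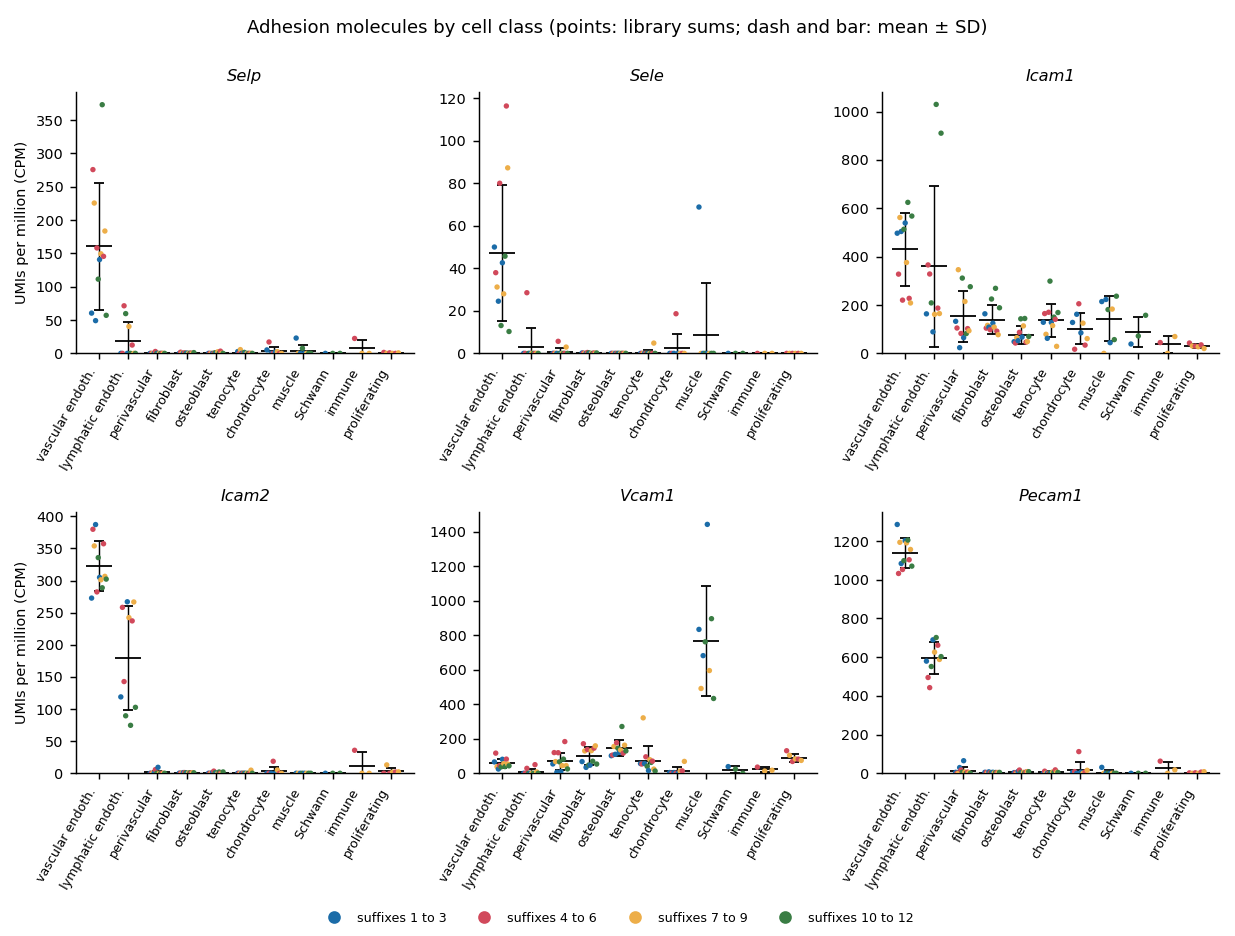
Level of each adhesion gene in CPM by marker-named cell class, each point 1 library with at least 10 cells of the class and bars the mean ± SD over libraries. Selp, Sele, Icam2 and Pecam1 stand out in vascular endothelium, Icam1 is highest in the 2 endothelial classes, and Vcam1 is highest in muscle-class cells, where libraries lie between 434 and 1443.

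All levels here are of RNA, and protein was not measured. For Selp, the P-selectin gene, vascular endothelium held 49.1 CPM in the lowest library, 147 in the median and 373 in the highest, and fibroblasts 0, 0.272 and 1.70. Every endothelial library lay above every fibroblast library, with a fitted log2 fold change of 7.88. Sele, the E-selectin gene, gave 10.3, 40.3 and 116 CPM in endothelium and 0, 0.0608 and 0.404 in fibroblasts, again without overlap (7.45). The fibroblast levels rest on 34 Selp and 9 Sele UMIs in all, so both genes reached the test through the endothelium, where they are high, and their calls are not given as evidence. Selectin transcripts were found in few endothelial cells: 9.80% had a Selp UMI (95% Wilson interval 8.50 to 11.3%) and 6.06% a Sele UMI (5.04 to 7.27%), at a median of 3176 UMIs per cell. In fibroblasts, which should lack them, the shares were 0.221% and 0.0796% at a median of 5530 UMIs, and these are read as background. With every cell thinned to 2000 UMIs the endothelial shares were 7.61% and 3.84%. Wilson intervals here and below cover counting error only.

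Icam1, whose product is a ligand of leukocyte integrins on stimulated vessels, was measured at 209, 501 and 625 CPM (lowest, median and highest library) in vascular endothelium and at 77.2, 112 and 269 in fibroblasts. The ranges overlapped, but endothelium was higher in 12 of 12 libraries (log2 fold change 1.42 ± 0.19, SE, edgeR adjusted p = 4.4e-10, n = 12 libraries). Vcam1, whose product binds lymphocytes and monocytes, went the other way, with 24.5, 48.8 and 117 CPM in endothelium and 34.0, 99.8 and 171 in fibroblasts. Vcam1 was lower in endothelium in 11 of 12 libraries (-0.94 ± 0.23, edgeR adjusted p = 0.00024). The gap was uneven over the suffixes. Means in endothelium and fibroblasts were 57.0 and 49.6 CPM for suffixes 1 to 3 and 80.9 and 152 for 4 to 6. They were 49.2 and 140 for 7 to 9 and 39.5 and 57.1 for 10 to 12. Icam2, with 273, 306 and 387 CPM, and Pecam1, with 1032, 1130 and 1286 CPM, were near constant over endothelial libraries. Both were close to 0 in fibroblasts, where no library exceeded 1.08 CPM for Icam2 or 7.22 CPM for Pecam1. The fitted log2 fold changes were 8.47 for Icam2, whose 48 fibroblast UMIs set the same limit as for the selectins, and 7.95 ± 0.23 for Pecam1, with 277 fibroblast UMIs. Of 8824 genes in this comparison, 27.6% were called higher in endothelium and 26.2% lower, so a call alone says little.

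Other genes of leukocyte passage were compared between the same classes. Of 15 junction and transmigration molecules, 14 were tested, and 9 were higher in vascular endothelium and 1 lower. Cdh5 (VE-cadherin, 8.56), Esam (8.29) and F11r (8.09), all endothelial junction proteins, were far higher, and Aoc3, a surface amine oxidase, was lower (-0.69). Of 7 tested selectin ligand cores and sialomucins, Emcn (8.58), Podxl (8.01) and Cd24a (1.19) were higher and Cd44 (-2.40) and Podxl2 (-3.43) lower in endothelium. Among 9 tested receptors of cytokines that induce adhesion molecules, Tnfrsf1b (1.05), Ifngr1 (0.90) and Il4ra (0.53) were higher and Il1r1 (-1.32), Il1rap (-1.11) and Il13ra1 (-1.17) lower, which is near the share of all genes called in each direction. Dissociation and immediate early genes, which can rise while tissue is digested, were higher in endothelium for 8 of 20 and lower for 1, and their part in the Icam1 difference was not tested. Of markers of other cell types, 7 of 9 perivascular, 2 of 6 immune and 4 of 4 tested erythroid markers were higher in the endothelial sums, and their part in the results was not tested.

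Between the 2 endothelial classes, Icam1 did not separate. Vascular libraries gave 209, 436 and 625 CPM and lymphatic libraries 89.0, 198 and 1030 (lowest, median and highest of the 10 libraries with both). The vascular level was higher in 6 of 10, and the difference was not called (0.57 ± 0.25, edgeR adjusted p = 0.083). Icam2 and Pecam1 were called higher in vascular cells, by 1.07 and 1.24, where 22.9% of genes were called either way. Lymphatic endothelium still held 594 ± 82.4 CPM of Pecam1 and 180.0 ± 80.8 of Icam2 (SD, n = 10), whereas its 12 Selp, 7 Vcam1 and 2 Sele UMIs came from 7 cells, 5 cells and 1 cell, too few for a fold or a call to be given.

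Among the named classes Vcam1 had its highest level in muscle-class cells, which were led by Myod1, Pax7 and Myf5, regulators of muscle progenitors. The lowest of 8 libraries gave 434 CPM, the median 722 and the highest 1443, and a Vcam1 UMI was found in 63.2% of cells (57.2 to 68.7%) at a median of 2570 UMIs. In the same libraries osteoblasts gave 102, 132 and 271 CPM, without overlap (2.58 ± 0.26, edgeR adjusted p = 1.5e-14, 40.8% of genes called). The order continued with osteoblasts (144 ± 46.5, n = 12) above fibroblasts (99.5 ± 50.4, n = 12), a difference that was called (0.66 ± 0.21, edgeR adjusted p = 0.0088, 29.3% of genes called) and seen in 10 of 12 libraries. Fibroblasts, proliferating, tenocyte, perivascular and vascular endothelial cells followed in that order of mean level, and no neighbours among them differed beyond their spread. Proliferating cells had 6 libraries and tenocytes 12, and the fit within libraries turned the order of these 2 classes (-0.29 ± 0.33, not called). For Icam1 the endothelial classes came first among the named ones, lymphatic endothelium was called above perivascular cells (0.85 ± 0.27, edgeR adjusted p = 0.0089, 32.7% of genes called), and no neighbours from perivascular through muscle, fibroblast and tenocyte to chondrocyte cells (153 to 102 CPM) were called different. The next class, Schwann cells, had a mean of 89.4 ± 61.3 CPM (SD, n = 3) from 36 Icam1 UMIs in 9 cells. The fit called chondrocytes higher (1.93 ± 0.65, edgeR adjusted p = 0.020, 23.2% of genes called), although the means were close and rest replicate 1 alone held enough cells of both. Muscle-class Sele needs care, since all of its 9 UMIs came from a single cell of rest replicate 1, which also held 4 Pecam1 UMIs.

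Genes with the most similar levels over the 11 named classes are given as a description, by Pearson's r of mean log2 CPM across 11 classes that share libraries, among 12836 genes. They were Gbp4 for Selp (0.976), Cd247 for Sele (0.993), Sigirr for Icam2 (0.999), Arap3 for Pecam1 (0.991), Mapk1ip1 for Icam1 (0.927) and Diexf for Vcam1 (0.895).

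Madcam1 was close to absent. Of its 12 UMIs, 10 came from a single chondrocyte of rest replicate 1, and a lymphatic endothelial cell and an osteoblast of peak replicate 2 held 1 each. No UMI fell in 1766 vascular endothelial cells, which allows up to 0.170% of such cells with a UMI at this depth. The gene was in no test.

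The second question was where in the vascular tree the molecules lie. Vascular endothelial cells were divided into 12 subclusters, of which 3 could be named, venular (90 cells), capillary (297) and arterial (98). The venular cells were 5.10% of the endothelium but held 47.3% of its Selp UMIs and 36.8% of its Sele UMIs. A Selp UMI was found in 68.9% of venular cells (58.7 to 77.5%) and in 0 of 297 capillary cells, which allows a share of up to 1.01%. The depths differed, with a median of 3923.5 UMIs in venular and 2208 in capillary cells, and after thinning to 2000 UMIs the venular share was 57.5% and the capillary share 0%.

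**Figure D2:**
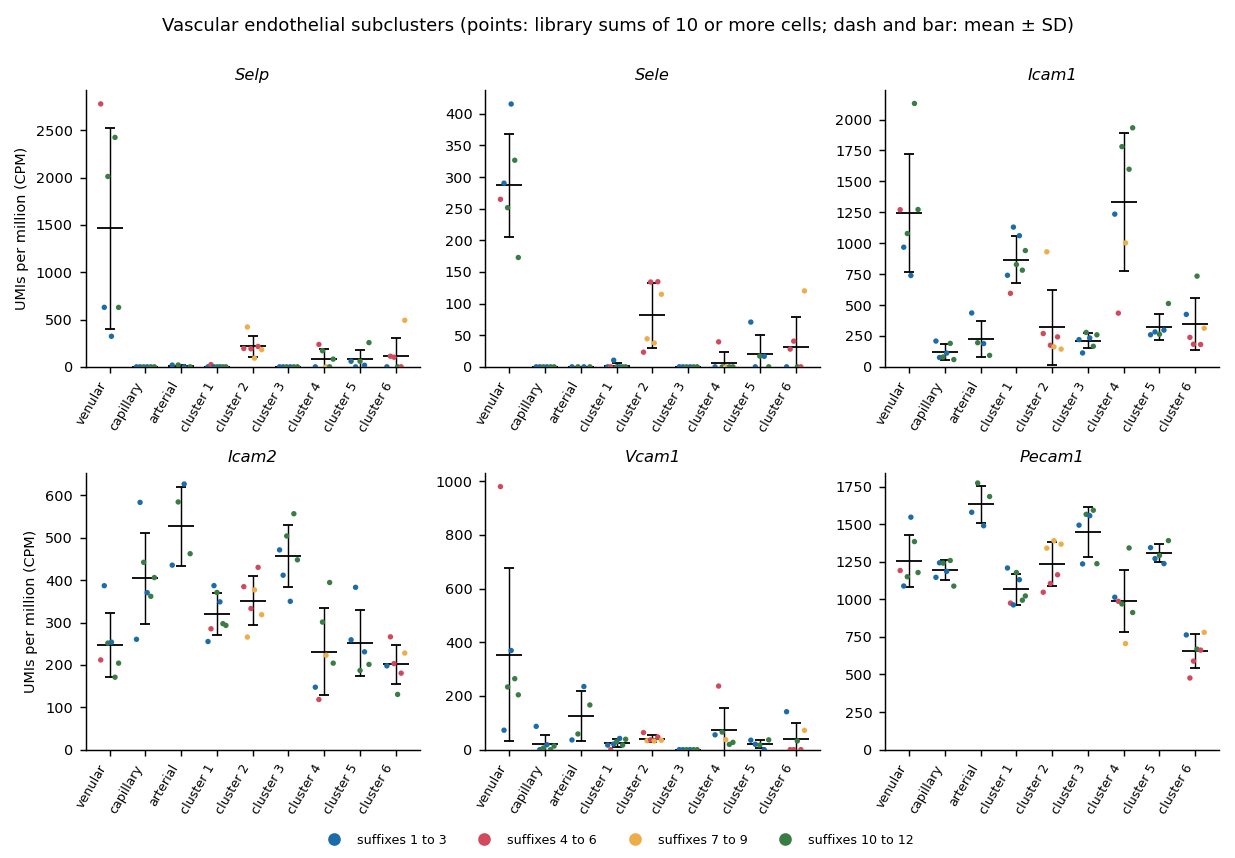
Level of 6 adhesion genes in CPM in the venular, capillary and arterial subclusters and clusters 1 to 6, each point 1 library with at least 10 cells and bars the mean ± SD. Of the subclusters drawn, the mean levels of Selp and Sele are highest in the venular subcluster and then in cluster 2, Icam1 is highest in cluster 4 and the venular subcluster, whose libraries overlap, and Pecam1 and Icam2 are present in every subcluster.

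The 5 libraries with at least 10 cells of both kinds were compared. Venular Selp was 323, 629 and 2426 CPM (lowest, median and highest), and venular Sele 173, 290 and 415, whereas all capillary libraries were at 0 for both. Against a floor of 3 counts over all capillary cells, the pooled venular level was at least 341-fold higher for Selp and at least 69.8-fold higher for Sele. Vcam1 was 72.6, 234 and 369 CPM in venular and 0, 6.14 and 18.5 in capillary cells. Its capillary level rests on 10 UMIs in 7 cells, so the gene reached the test through the venular cells and its call is not given as evidence (fitted log2 fold change 3.84). Icam1 was 738, 1078 and 2130 against 58.7, 79.9 and 190 CPM (3.72 ± 0.22, SE, edgeR adjusted p = 1.5e-10). For these 4 genes the compared venular and capillary libraries did not overlap, though the capillary cells of rest replicate 1, which had too few venular cells to be compared, gave 86.8 CPM of Vcam1, above the lowest venular library. This was in a comparison in which 20.3% of 1172 genes were called higher and 21.5% lower. Icam2 went the other way, with 171, 252 and 387 CPM in venular and 362, 406 and 584 in capillary cells, lower in 5 of 5 libraries (-0.76 ± 0.20, edgeR adjusted p = 0.0037). Pecam1 differed by 0.11 ± 0.14 (edgeR adjusted p = 0.54) and was not called.

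Most tested junction molecules were lower in the venular cells. Of 6 tested junction molecules none was higher and 5 were lower, Cdh5 (-1.32), Esam (-0.81), F11r (-0.79), Jam2 (-0.66) and Bcam (-0.55), and the sialomucin Podxl was also lower (-1.05), whereas Cd24a was higher (5.03). Tnfrsf1a, a TNF receptor, was higher (0.98) and Ifngr1 lower (-0.94). Of the 20 dissociation and immediate early genes, 11 were higher and 3 lower in venular cells, with a median of 0.69 against -0.07 over all genes. Nr4a1 (2.64), Atf3 (1.52) and Fosb (1.35) were among the higher ones, and Hspa1a (-1.17) among the lower. They moved with the Icam1 difference, and their part in it was not tested. No marker of a class outside the endothelium was called higher in venular cells, and no perivascular, immune or platelet marker passed the filter on low counts.

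Selectins were not confined to the venular subcluster. Cluster 2 (260 cells), led by Fam167b, Mest and Col18a1, held Selp at 216 ± 109 CPM and Sele at 81.4 ± 51.7 (SD, n = 6), and 110 and 124 of its cells came from suffixes 4 to 6 and 7 to 9. Cluster 11 (39 cells), led by proliferation genes, had 124 and 161 CPM of Selp and 57.4 and 226 of Sele in its 2 libraries, so its mean Sele level (142) was above that of cluster 2. Icam1 was 434, 1417 and 1933 CPM (lowest, median and highest of 6 libraries) in cluster 4 (127 cells), led by Cxcl10, Ifit1 and Plaur, genes of interferon and acute responses. Its mean, 1331 ± 558, lay within the spread of the venular level, 1243 ± 479 (SD, n = 6), a pair that was not tested, and 2.36% of its cells had a Selp UMI. Cluster 1 also combined high Icam1 (868 ± 188 CPM, n = 7) with 1 Selp UMI in 274 cells. Arterial cells gave 527 ± 92.8 CPM of Icam2, 1631 ± 124 of Pecam1 and 124 ± 93.4 of Vcam1 (n = 4), with 4 Selp and 0 Sele UMIs. Clusters 6, 9 and 10 were led by genes of perivascular, fibroblast and muscle cells, and their levels were not compared.

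The third question was whether the molecules are found in the same endothelial cells. Of 1766 cells, 173 had a Selp UMI and 107 a Sele UMI, and 81 had both, which is 75.7% of the Sele cells and 46.8% of the Selp cells. A Sele UMI was found in 46.8% of Selp-positive and 1.63% of Selp-negative cells, higher in positive cells in 12 of 12 libraries. Positive cells were deeper (median 4990 against 3028 UMIs), and after thinning to 2000 UMIs the shares were 28.6% and 1.80%. Vcam1 was found in 37.0% of Selp-positive and 7.28% of Selp-negative cells (27.7% and 5.33% after thinning), and Icam1 in 78.6% and 40.8% (64.7% and 33.6%). Of the 173 positive cells, 49 rested on a single UMI.

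**Figure D3:**
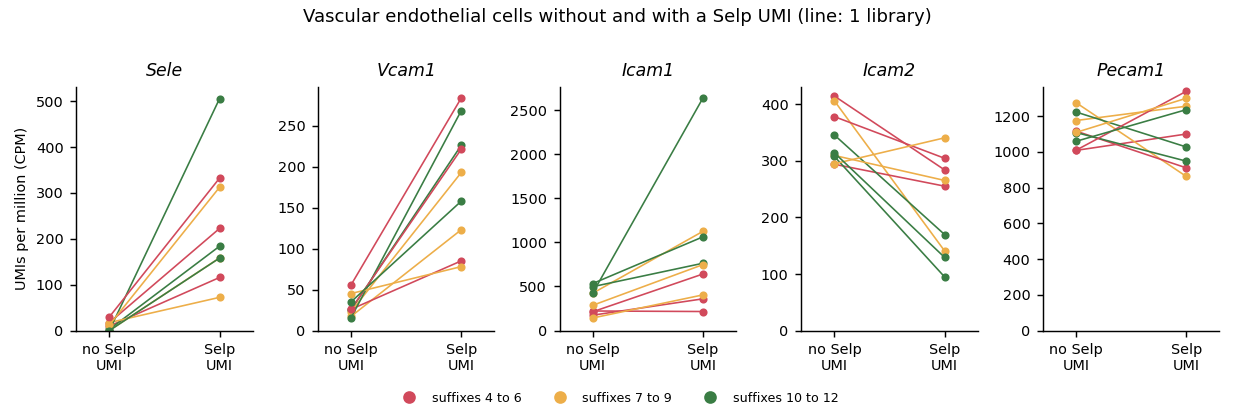
Level of 5 adhesion genes in CPM in Selp-positive and Selp-negative vascular endothelial cells of the same library, joined by lines, for the 9 libraries with at least 10 positive cells. Sele and Vcam1 are higher in the positive cells in 9 of 9 libraries and Icam1 in 8 of 9, Icam2 is lower in 8 of 9, and Pecam1 shows no common direction.

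Sums of positive and negative cells were then compared within the 9 libraries with at least 10 positive cells, which hold suffixes 4 to 12. Sele was 72.4, 184 and 506 CPM in positive and 0, 9.60 and 29.7 in negative cells, without overlap. Negative cells were at 0 in 3 of the 9 libraries, so Sele reached the test through the positive cells and its call is not given as evidence (fitted log2 fold change 4.80). Vcam1 was 78.1, 193 and 284 against 15.7, 26.0 and 55.7 CPM, also without overlap (2.60 ± 0.26, SE, edgeR adjusted p = 2.8e-06, 9 of 9). Icam1 was 216, 748 and 2639 against 143, 287 and 533 CPM, with overlapping ranges (1.33 ± 0.19, edgeR adjusted p = 0.00014, 8 of 9). Vcam1 and Icam1 were thus called higher, in a comparison that called 3.87% of 3900 genes higher and 4.72% lower. Icam2 was lower in 8 of 9 libraries but missed the threshold (-0.55 ± 0.18, edgeR adjusted p = 0.054), and it passed with DESeq2 (adjusted p = 0.045), with no filter on low counts (-0.73, edgeR adjusted p = 0.00081) and with edgeR without peak replicate 1, peak replicate 2, resolving replicate 1 or resolved replicate 2 (-0.55 to -0.67). Pecam1 differed by 0.04 ± 0.11 (edgeR adjusted p = 0.91).

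Markers of vessel type moved with Selp status. Leaving out the adhesion genes themselves, the 5 largest rises shared by 9 of 9 libraries were Ackr1 (4.82 ± 0.49), the chemokine-binding receptor of venules, Csf3 (3.06 ± 0.53), the granulocyte growth factor G-CSF, Mctp1 (2.69 ± 0.38), Lrg1 (2.54 ± 0.39) and Vwf (2.41 ± 0.32), which is stored in the same granules as P-selectin. The 5 largest falls were Slc26a10 (-5.17), Car8 (-4.56), Timp4 (-4.30), Alpl (-4.15) and Lpl (-3.31 ± 0.30), the lipoprotein lipase handled by capillary endothelium. Of the venular markers 4 of 6 were higher and none lower, and all 5 capillary and 4 of 4 tested arterial markers were lower. Among genes of passage, Stab1 (1.04), Pvr (0.87) and the sialyltransferase St3gal4 (0.80), which builds selectin ligands, were higher, Bcam (-0.61) and Podxl (-1.02) were lower, and of 6 tested cytokine receptors Il13ra1 (1.19) was higher. The 20 dissociation and immediate early genes gave 0 higher and 10 lower, led by Hspa1a (-1.58), and their part in these differences was not tested. Selp is also a platelet gene. Positive cells held 24 UMIs of Itga2b and 4 of Pf4, both platelet genes, Ppbp had 1 UMI, and Gp9, Gp1bb and Treml1 were at 0. A Pf4 UMI was found in 2.31% of positive and 0.502% of negative cells. Of the immune markers, positive cells held 11 UMIs of Fcer1g, 5 of Laptm5, 3 of Lyz2 and 1 each of Tyrobp and Coro1a, with Ptprc at 0. The part of attached platelets and leukocytes was not tested. Of 4 tested erythroid markers 3 were lower in positive cells.

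The fourth question concerned synovial fibroblasts, which held most Vcam1 and Icam1 UMIs. A Vcam1 UMI was found in 29.3% of fibroblasts (28.5 to 30.2%) and an Icam1 UMI in 34.2% (33.3 to 35.0%). The lining fibroblasts (1163 cells), which face the joint cavity and make lubricin, were set against the sublining cluster led by Pi16 and Dpp4 (1328 cells). Vcam1 was 29.6, 43.8 and 113 CPM in the lining and 10.5, 27.4 and 62.7 in the sublining (lowest, median and highest of 12 libraries). The ranges overlapped, and the lining was higher in 11 of 12 libraries (0.92 ± 0.22, edgeR adjusted p = 0.00031), while 13.7% of 7434 genes were called higher and 15.7% lower. Icam1 was 17.3, 37.8 and 141 CPM in the lining and 39.0, 58.7 and 83.8 in the sublining, and was not called (-0.09 ± 0.25, edgeR adjusted p = 0.82). Its direction differed with the barcode suffix, a difference that was not tested: for suffixes 4 to 9 every lining library (17.3 to 38.2 CPM) lay below every sublining library (41.6 to 83.8), whereas for the others the lining median was higher (76.6 against 58.7) and the ranges overlapped. The pooled value was -0.61 without upper limits on genes and UMIs (edgeR adjusted p = 0.086) and -0.34 without rest replicate 1.

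**Figure D4:**
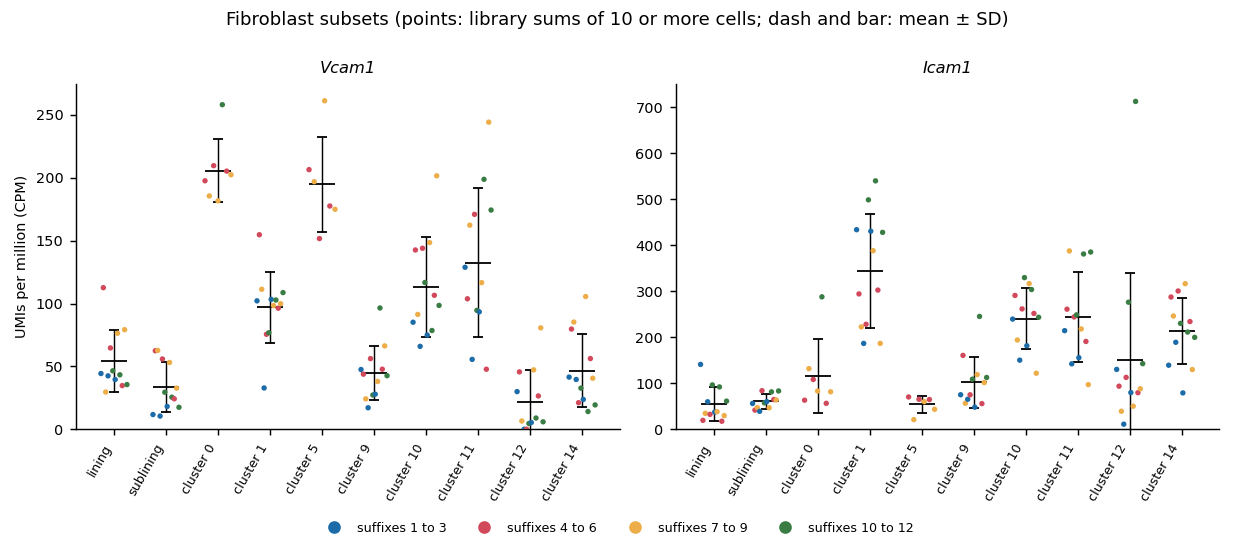
Vcam1 and Icam1 in CPM by fibroblast subset, each point 1 library with at least 10 cells, coloured by its run of 3 barcode suffixes, and bars the mean ± SD. Vcam1 is highest in clusters 0 and 5 (206 and 195 CPM on average) and Icam1 in cluster 1 (345 CPM), and the orders of the subsets differ between the genes.

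Other genes of adhesion and its induction were compared between lining and sublining. The hyaluronan receptor Cd44 (1.15) and Cd24a (1.10) were higher and Cd34 (-3.83) lower in the lining. Of 6 tested enzymes that build selectin ligands, the sulfotransferase Chst2 (5.68) was higher and St3gal4 (-0.92) and the tyrosine sulfotransferase Tpst1 (-1.86) were lower. Of 8 tested cytokine receptors, Il1r1 (-1.48), Il4ra (-1.25), Ifngr1 (-1.09) and Il13ra1 (-0.61) were lower and Ifngr2 (0.66) higher. Of 7 tested junction molecules Aoc3 (-3.25) and Pvr (-1.02) were lower and Jam2 (0.85) higher. For the junction molecules and the enzymes these counts are near the 13.7% of all genes called higher, and somewhat above the 15.7% called lower. Of the 20 dissociation and immediate early genes, none was higher and 5 were lower, and of 3 tested markers each, 2 vascular endothelial markers were lower and 2 perivascular markers higher in the lining.

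Over all 10 fibroblast subsets the 2 genes had different orders. Vcam1 was highest in cluster 0 (206 ± 25.3 CPM, n = 7), led by Saa3, Hp and Col14a1, and in cluster 5 (195 ± 37.7, n = 6), led by Cxcl5 and Sfrp1. Clusters 11, 10 and 1 came next (133 to 96.9 CPM), and no neighbours in this upper group were called different. Further apart, cluster 0 was called above cluster 1 (0.56 ± 0.19, edgeR adjusted p = 0.011, 32.9% of genes called) and cluster 10 (0.53 ± 0.20, edgeR adjusted p = 0.032, 19.3% called). Cluster 1 was called above the lining (1.15 ± 0.18, edgeR adjusted p = 3.1e-08, 44.9% of genes called), and cluster 9 above the sublining (0.72 ± 0.25, edgeR adjusted p = 0.045, 9.48% of genes called), with the lowest mean in cluster 12 (21.8 ± 25.1). Icam1 was highest in cluster 1 (345 ± 124, n = 12), led by Ifi205, Ccl7, Ccl2 and Ptx3, inflammatory and interferon-related genes, and that cluster was called above cluster 11 (0.91 ± 0.20, edgeR adjusted p = 6.5e-05, 45.4% of genes called). Below cluster 11 (244 CPM) no neighbours were called different, down to the lining and cluster 5, at 54.9 and 54.0 CPM. Clusters further apart were, such as cluster 11 above the lining (2.01 ± 0.23, edgeR adjusted p = 2.8e-13, 43.2% of genes called). Cluster 5 had libraries of suffixes 4 to 9 only. The fit within libraries put it above the lining, which was not called (0.37 ± 0.28, edgeR adjusted p = 0.29). Cluster 5 was thus high in Vcam1 and among the lowest in Icam1, while cluster 0 lay in the middle of the Icam1 order (116 ± 80.1, n = 7). Of these clusters, 1565 of the 1600 cells of cluster 0 and 1241 of the 1244 cells of cluster 5 came from libraries with suffixes 4 to 9.

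Fibroblasts with a Vcam1 UMI (3315 cells, of which 53.9% rested on a single UMI) were deeper than those without (7986 cells), with medians of 7058 and 5068.5 UMIs. Icam1 was 77.2, 152 and 326 CPM in positive and 74.0, 111 and 259 in negative cells of the 12 libraries, higher in 8 of 12 and not called (0.30 ± 0.11, edgeR adjusted p = 0.074). It was higher in positive cells in all 6 libraries of suffixes 1 to 3 and 10 to 12 and lower in all 3 of suffixes 4 to 6 (77.2 to 99.7 against 111 to 112 CPM), and the difference between runs was not tested. With every cell thinned to 2000 UMIs it was called (0.61, edgeR adjusted p = 8.6e-06). The comparison called 2.67% of 10163 genes higher and 2.82% lower. The largest rises in 12 of 12 libraries were Tnfsf11 (RANKL, 1.44 ± 0.14), the osteoclast-inducing cytokine, Mmp13 (1.36 ± 0.20), a collagenase, Angptl4 (1.35 ± 0.13), Megf6 (1.16) and Fscn1 (1.06), and the largest falls Dmkn (-2.30), Clu (-2.29), Cpn1 (-2.15), Slurp1 (-1.94) and Stmn4 (-1.83 ± 0.15). Positive cells were spread unevenly over the subsets, with a Vcam1 UMI in 67.9% and 55.8% of clusters 5 and 0 against 10.0% of the sublining and 6.97% of cluster 12. Stmn4 is among the leading genes of the sublining cluster and Clu and Slurp1 among those of cluster 12, and the part of subset makeup in these changes was not tested. Of genes of passage, Aoc3 (0.81) was higher and Jam2 (-0.90), Cd34 (-0.71) and St3gal6 (-0.64) lower. None of 10 cytokine receptors and none of the 20 dissociation genes was called, while both tested proliferation markers were higher.

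The last question was whether the genes changed over the course of arthritis. No gene of the whole table was called between any later stage and rest, in fibroblasts (0 of 11800) or vascular endothelium (0 of 6930), with edgeR's quasi-likelihood test. At an unadjusted edgeR p under 0.05 there were 70, 108 and 75 genes for peak, resolving and resolved in fibroblasts (0.593, 0.915 and 0.636%). In endothelium there were 91, 185 and 102 (1.31, 2.67 and 1.47%). All lie under the share that this threshold lets through with no effect. The fit was thus conservative here, and 0 calls do not show that the stages are alike. DESeq2 called 1 gene, for resolving fibroblasts, Chil1 (log2 fold change -2.71, DESeq2 adjusted p = 0.000115), named here for being the single call. Without the filter on low counts edgeR called 31, 49 and 21 genes in endothelium. With 3 libraries a stage, an exact permutation test cannot give a p below 0.1.

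Endothelial Selp was 60.4, 276 and 226 CPM in the libraries labelled rest replicates 1 to 3, 49.1, 158 and 111 in peak, 141, 149 and 373 in resolving and 146, 184 and 57.1 in resolved. Every stage overlapped rest, and the spread within rest, 187 ± 113 (SD, n = 3), was larger than its distance to any later stage. Endothelial Vcam1 was 65.6, 117 and 38.2 CPM at rest and 24.5, 44.04 and 36.8 at peak, with overlap (-1.09 ± 0.40, edgeR adjusted p = 0.9997). Endothelial Icam1 was 497, 328 and 562 CPM at rest, 504, 220 and 513 at peak, 539, 376 and 625 in resolving and 228, 209 and 568 in resolved, again with overlap. Fibroblast Vcam1 was 67.7, 171 and 130 CPM at rest and 34.0, 138 and 47.8 at peak (-0.75 ± 0.60), and Icam1 164, 104 and 116 at rest and 108, 97.8 and 225 at peak (0.21 ± 0.46). With the run of suffixes as a block, the direction for fibroblast Icam1 at peak turned (-0.34, edgeR adjusted p = 0.9999).

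The same libraries did separate by their barcode suffixes. The runs of 3 were set after libraries of a run had been seen to be alike in these data. The p-values over runs, here and below, thus describe a known grouping and are not independent evidence for it. Fibroblast Vcam1 lay between 34.0 and 67.7 CPM for suffixes 1 to 3, 138 and 171 for 4 to 6, 130 and 159 for 7 to 9, and 47.8 and 70.0 for 10 to 12. The 6 libraries of suffixes 4 to 9 were all above the other 6 (edgeR adjusted p = 7.3e-06 over the 4 runs). Fibroblast Icam1 was highest for suffixes 10 to 12, at 189 to 269 CPM, against 77.2 to 164 for the rest (edgeR adjusted p = 5.9e-05). Both were called, as was Pecam1 (edgeR adjusted p = 0.047), in a comparison that 54.7% of genes passed. The Pecam1 call was lost when any library but rest replicate 2 or resolved replicate 2 was left out (0.053 to 0.13). Fibroblast Pecam1 was low, at 3.87 ± 1.61 CPM with a UMI in 2.25% of cells. Osteoblasts (5.63 ± 4.63) and tenocytes (4.19 ± 5.43, SD, n = 12 each) were at a similar level. Whether these UMIs are background was not tested.

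**Figure D5:**
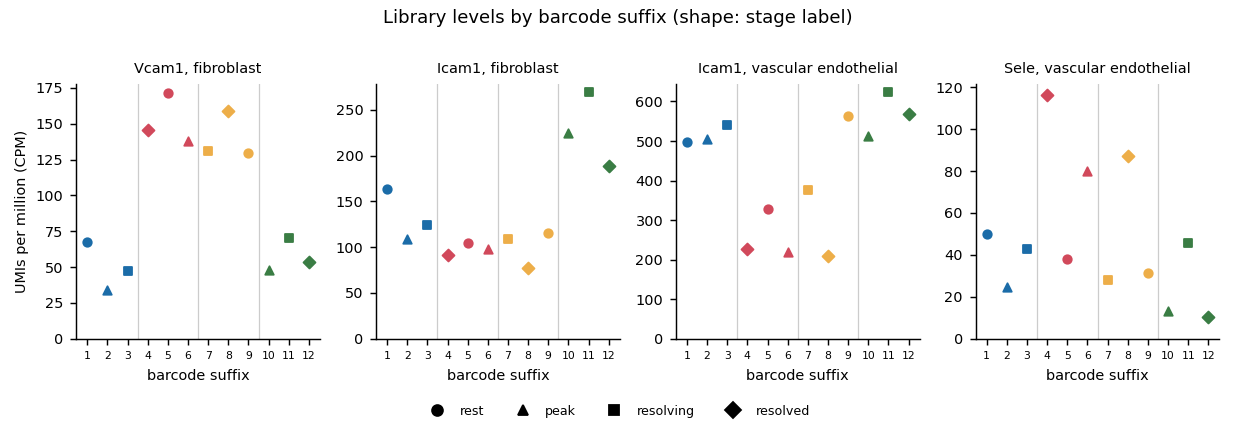
Level of adhesion genes in CPM in fibroblasts and vascular endothelium by barcode suffix 1 to 12, each point 1 library, coloured by run of 3 suffixes and shaped by stage label. Fibroblast Vcam1 is at 130 to 171 CPM for suffixes 4 to 9 and at 34.0 to 70.0 for the others, whatever the stage label.

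Inside fibroblast subsets the split by suffix was uneven. Sublining Vcam1 had a median of 54.5 CPM (24.2 to 62.7) for suffixes 4 to 9 and 17.8 (10.5 to 29.4) for the others, and lining Vcam1 70.5 (29.6 to 113) and 42.9 (35.5 to 46.5), and in both the ranges overlapped. Vcam1 medians were also higher for suffixes 4 to 9 in cluster 10, at 143 (91.3 to 202) and 81.8 (65.9 to 117) CPM. So they were in cluster 14, at 67.9 (21.1 to 106) and 28.2 (14.1 to 41.5), and cluster 12, at 36.0 (0 to 80.7) and 5.60 (0 to 29.9), again with overlap. Cluster 1 gave 99.1 (75.5 to 155) and 102 (32.8 to 109) CPM of Vcam1 and cluster 11 139 (47.7 to 244) and 112 (55.6 to 199), with no separation by suffix. Lining Icam1 had a median of 30.9 CPM for suffixes 4 to 9 and 76.6 (37.4 to 141) for the others. Cluster 1 Icam1 had 261 (187 to 388) and 432 (187 to 540), while cluster 14 went the other way, with 267 (130 to 317) and 194 (79.0 to 230). These subset values were not tested. In vascular endothelium Icam1 was 497 to 539 CPM for suffixes 1 to 3, 220 to 328 for 4 to 6, 209 to 562 for 7 to 9 and 513 to 625 for 10 to 12 (edgeR adjusted p = 0.0066). Sele was highest for suffixes 4 to 6, at 38.0 to 116 CPM, and lowest for 10 to 12, at 10.3 to 45.7 (edgeR adjusted p = 0.038). The Sele call was lost without peak replicate 2 or 3 or resolved replicate 1 or 3 (0.10 to 0.13), with DESeq2 (0.23), with cells thinned to 2000 UMIs (0.13) and without upper limits on genes and UMIs (0.0501). These were 2 of 6 genes tested, in a comparison that 25.1% of genes passed, and Vcam1 (0.084), Selp (0.20), Pecam1 (0.67) and Icam2 (0.90) were not called by edgeR adjusted p. Vcam1 was called without peak replicate 1 or 2 (0.028 and 0.018), without the highest doublet scores (0.0086) and with no filter on low counts (0.0014). Selp was called without resolving or resolved replicate 3 (0.0093 and 0.043) and with no filter (2.1e-09). The makeup of the endothelium also differed between the 4 runs. Cluster 1, high in Icam1, had 78, 25, 16 and 155 cells in them, and cluster 2, which held selectins, 13, 110, 124 and 13. The part of this makeup in the Icam1 and Sele differences was not tested. Dissociation and immediate early genes differed between the runs too, 19 of 20 in endothelium and 17 of 20 in fibroblasts, and their part in these differences was not tested.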

How the data were processed

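Single-cell RNA-seq libraries of CD45-negative joint cells (12 libraries, 3 for each of 4 stages) were analysed from the UMI count matrices that the authors deposited, which hold whole counts per gene and cell. The submitters' processing notes name Cell Ranger and mm10, without a version. Cells were kept with 500 to 5000 genes, at least 500 UMIs and no more than the study's limit for each library, 20000 to 40000 UMIs. Totals per library limit the precision of low genes, and doublets were kept, with the 6% that score highest for doublets removed as an alternative.

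Cells were clustered with scanpy 1.11.5 and leidenalg 0.10.2 (2000 variable genes, 30 components, 20 neighbours, resolution 1), leaving out the 7 genes and every list of adhesion genes. A class needed at least 4 of its markers (fibroblasts 5 of 7, subsets 3). Counts were summed per library and class, with at least 10 cells, and tested with edgeR 4.0.16 in R 4.3.3 (TMM, filterByExpr, quasi-likelihood, Benjamini-Hochberg over all tested genes), with library as a block within paired classes. The tests were tried on simulated counts first. DESeq2 1.42.0, other scaling, no filter, no upper limits, thinning to 2000 UMIs and leaving out each library were the alternatives. Stages were compared without a block, and the exact permutation test was used on single values. p-values measure the spread between pooled libraries.

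The members, the lists and the rules were chosen with earlier results of these data known. Named genes were the 7 members, listed adhesion, cytokine receptor and dissociation genes, and, by Selp or Vcam1 status, the 5 largest changes each way shared by every library.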

Additional observations from a re-analysis of the deposited data

Results flagged for a closer look

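Within 30 groups of 4 to 10 libraries, single libraries stood far from the others of their group in 6 cases, and chance alone gives such a flag in about 1 of 20 groups. In chondrocytes, Pecam1 was 112 CPM in peak replicate 2 (6 UMIs in 10 cells) against 0 to 15.3 in the other libraries (n = 8), and Vcam1 was 68.8 CPM in resolved replicate 2 (9 UMIs in 17 cells) against 0 to 13.7. Vcam1 of muscle-class cells was 1443 CPM in resolving replicate 1 (163 UMIs in 39 cells) against 434 to 896. In fibroblast cluster 0, resolving replicate 3, which gave 13 cells, had 288 CPM of Icam1 against 56.4 to 132 and 258 CPM of Vcam1 against 182 to 210 (n = 7). In venular endothelium, Vcam1 was 979.7 CPM in rest replicate 2 (37 UMIs in 11 cells) against 72.6 to 369 (n = 6), and that library is not in the comparison with capillary cells.

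Cells outside the named classes also carried these genes. The unnamed cluster 25 (29 cells), led by Cfd and Adipoq, an adipocyte hormone gene, held Vcam1 at 909 CPM in its pooled 131 UMIs, above the highest pooled level of a named class (801). The unnamed cluster 26 (24 cells), led by Sfrp5, Krt19 and Cldn1, held Icam1 at 556 CPM in 49 UMIs, above the highest named class (450.4). The unnamed cluster 7 (1090 cells), led by Fbln7, Angptl7 and Gpnmb, held 2326 Icam1 UMIs at a pooled 379 CPM, above pooled lymphatic endothelium (352) and fibroblasts (139). Madcam1, in no comparison, was found as 12 UMIs in all cells.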

How the results depend on the processing

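Of 1366 values recomputed under an alternative or without 1 library, 1266 kept their direction and side of the threshold, and 47 of the 51 that changed sign were stage differences. The calls of Icam1 and Vcam1 between endothelium and fibroblasts, of Vcam1 between lining and sublining, of Icam1 and Icam2 between venular and capillary cells, and of Vcam1 and Icam1 by Selp status held under every alternative run. Venular Selp and Sele compare with a count of 0 in capillary cells and Vcam1 with 10 UMIs, so their calls say nothing of stability, and Sele was not called by DESeq2 (adjusted p = 0.080). The cause of the changes below was not tested, except that thinning leaves fewer cells and no filter tests more genes.

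Without the filter on low counts, 7571 genes were called between endothelium and fibroblasts (4745 with it), 3417 between lining and sublining (2189), 763 between venular and capillary cells (490) and 597 by Selp status (335), and 31, 49 and 21 for peak, resolving and resolved endothelium (0 each). Pecam1 changed to -0.0040 between venular and capillary cells and to -0.16 by Selp status. With cells thinned to 2000 UMIs, the counts were 1144 for lining, 243 for venular cells, 173 by Selp and 180 by Vcam1 status (558), 3107 between suffix runs in fibroblasts (6453) and 686 in endothelium (1739). Without the library block, 504 genes were called by Selp and 16 by Vcam1 status, and DESeq2 called 1 for resolving fibroblasts.

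Same-numbered replicates of different stages correlated at -0.57 to 0.72 in their deviations, so the numbers were not taken as a pairing. A fit with the replicate number as a block called 1 gene for resolved endothelium (Slpi, log2 fold change 4.51, edgeR adjusted p = 0.00609) and turned resolved fibroblast Vcam1 to 0.042 and resolving endothelial Sele to 0.22. With the run of suffixes as a block, Icam1 was -0.34 for peak and -0.15 for resolving fibroblasts, and in endothelium Sele was 0.14 for peak and 0.75 for resolving, with resolving Icam1 at -0.29 and Pecam1 at -0.0025. Thinning turned resolved fibroblast Vcam1 to 0.027, peak endothelial Icam2 to -0.022, resolving Selp to -0.20 and resolving Sele to 0.43. Without upper limits, resolving fibroblast Pecam1 was 0.014 and resolved Icam1 0.11, and without likely doublets resolving fibroblast Pecam1 was 0.0023 and resolving endothelial Selp -0.025.

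Leaving out each library in turn, log2 differences ranged as follows. By Selp status Pecam1 went from -0.027 to 0.10. In fibroblasts Icam1 went from -0.29 to 0.42 for peak, -0.15 to 0.60 for resolving and -0.59 to 0.21 for resolved. Vcam1 at peak went from -1.58 to -0.36 in fibroblasts and from -1.35 to -0.55 in endothelium. Fibroblast Pecam1 went from -0.14 to 0.57, -0.37 to 0.31 and -0.17 to 0.42 for the same stages, and resolved Vcam1 from -0.38 to 0.33. In endothelium at peak, Icam1 went from -0.31 to 0.18, Icam2 from -0.12 to 0.15 and Sele from -1.16 to 0.39. For resolving endothelium, Vcam1 went from -0.73 to 0.10, Icam1 from -0.049 to 0.31, Selp from -0.38 to 0.68, Sele from -0.20 to 0.12 and Pecam1 from -0.046 to 0.081. For resolved endothelium, Vcam1 went from -0.69 to 0.11 and Icam2 from -0.21 to 0.056. No stage fit called a gene without any 1 library.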
